A study of Homo sapiens with 9 samples.

Results

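The 40 genes described here encode proteins of the centromere, the kinetochore and the spindle checkpoint. They were chosen by name, with earlier results of these data known. Their rows were found through the Ensembl gene identifiers of the deposited files, named with GENCODE 29: 40 of 40 were present among 58381 genes with such an identifier. All 40 had at least 1 FPKM in at least 3 libraries, the level asked of a gene before testing, which 13777 genes reached. FPKM is a fragment count scaled to transcript length and library size. RNA of HK1, a human nasopharyngeal carcinoma cell line, was sequenced 48 h after the cells were given 100 nM siRNA. These 9 libraries form 3 groups of 3: HK1 given E2F3 siRNA (si-E2F3), HK1 given E2F1 siRNA (si-E2F1) and HK1 given a non-targeting siRNA (Control). All cells came from 1 line and all were transfected. An untransfected group and a second siRNA per target were not analysed here.

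The centromere is the chromosomal site, marked by the histone H3 variant CENP-A, on which the kinetochore is built. An inner network of CENP proteins sits on that chromatin throughout the cell cycle, and in mitosis it carries an outer layer (KNL1, MIS12 and NDC80 complexes) that holds microtubules. Unattached kinetochores run the spindle checkpoint, whose kinases and MAD and BUB proteins delay anaphase by blocking the activator CDC20. E2F1 and E2F3 are activating transcription factors restrained by pocket proteins of the retinoblastoma family, and many mitotic genes also carry a cell cycle homology region (CHR) in the promoter, the element bound by the MuvB core of the DREAM and B-MYB complexes.

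Steps in the FPKM of short single-exon genes put the depth, relative to Control replicate 1, at 0.964 to 0.983 in si-E2F3, 0.885 to 1.131 in si-E2F1 and 0.846 to 1.202 in Control; the absolute depth is not given in the sources used here. Replicates of a group correlated at 0.988 to 0.9904 (Pearson's r across the genes tested). E2F1 was at 21.21, 22.97 and 21.0 FPKM in si-E2F3, 7.17, 7.95 and 7.33 FPKM in si-E2F1, and 19.85, 19.53 and 20.2 FPKM in Control. E2F3 was at 12.61, 10.52 and 11.02 FPKM in si-E2F3, 29.19, 27.78 and 29.23 FPKM in si-E2F1, and 24.74, 27.17 and 24.42 FPKM in Control, so each siRNA lowered its own target. All 10 epithelial markers looked up (such as KRT5, TP63 and EPCAM) were above 14 FPKM in each library. Against Control, 9 of 10 were called lower after E2F1 siRNA (17.3% of all genes) and 8 of 10 after E2F3 siRNA (16.4%). EPCAM was called after neither (log2 0.15 in si-E2F1 and 0.02 in si-E2F3), and CDH1 was not called after E2F3 siRNA (log2 -0.20). Their summed level was 2008 ± 55.3 FPKM in si-E2F3, 2117 ± 54.9 FPKM in si-E2F1 and 2950 ± 24.3 FPKM in Control (SD, n = 3 each), and its part in the results was not tested. In all libraries 4 of 5 leukocyte, 2 of 3 endothelial and 3 of 5 fibroblast markers were under 1 FPKM. The fibroblast marker COL1A1 was at 12.34 to 18.73 FPKM. It was called higher after E2F1 siRNA (log2 0.45) and lower in si-E2F3 than in si-E2F1 (log2 -0.34). Control replicate 3 stood apart in blood cell transcripts, with LYZ at 7.49, HBB at 19.89 and HBA1 at 18.5 FPKM, against at most 1.06, 9.82 and 4.95 FPKM in the other 8 libraries. Counts are therefore also given without that library. Separate cultures per replicate are not stated in the labels, so the tests weigh differences only against the spread among these libraries.

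Promoter sequence was compared first, since the genes are known for shared cell cycle elements. RefSeq promoters (GRCh38.p14; 250 bases before to 50 after the start) were at hand for 33 of the 40 genes. Those of MIS18A, CENPH, CENPL, CENPM, KNL1, BUB3 and TTK were not used here. A CHR, searched as TTTGAA or TTCGAA on both strands, was in 19 of the 33 (57.6%), against 11.0% of the 9777 promoters matched to tested genes and 16.6% of all 27305 promoters. A CCAAT box, searched as CCAAT on both strands, was in 21 of 33 (63.6%), against 37.1% and 35.7%. An E2F element, searched as TTTCCCGC, TTTGGCGC, TTTCGCGC, TTTGGCGG or TTTCCCGG on both strands, was in 6 of 33 (18.2%), against 8.18% and 4.82%. No matches of different elements overlapped each other in these 33 promoters. These are descriptions of letters in a fixed window, and a match is not a bound site. NDC80 (chr18:2571407-2571586, plus strand) and OIP5 (chr15:41332562-41332741, minus strand) are shown because their promoters hold both a CHR and an E2F element within the stretch printed. CENPA (chr2:26785906-26786085, plus strand) and ZWINT (chr10:56361230-56361409, minus strand) are shown as genes with a CHR that were lower in si-E2F3 than in si-E2F1, and ZW10 (chr11:113773663-113773842, minus strand) as the gene with the largest change. Each stretch runs 5′ to 3′ on the gene's strand from 150 bases before the start to 30 after it, with CHR and E2F matches in capitals.
NDC80: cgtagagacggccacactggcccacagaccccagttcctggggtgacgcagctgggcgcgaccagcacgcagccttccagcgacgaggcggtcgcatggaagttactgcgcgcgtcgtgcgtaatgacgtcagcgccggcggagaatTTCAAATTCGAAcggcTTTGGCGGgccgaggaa
OIP5: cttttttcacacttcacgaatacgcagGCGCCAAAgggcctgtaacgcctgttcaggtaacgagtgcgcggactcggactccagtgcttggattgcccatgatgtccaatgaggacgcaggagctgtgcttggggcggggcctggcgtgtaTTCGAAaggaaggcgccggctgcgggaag
CENPA: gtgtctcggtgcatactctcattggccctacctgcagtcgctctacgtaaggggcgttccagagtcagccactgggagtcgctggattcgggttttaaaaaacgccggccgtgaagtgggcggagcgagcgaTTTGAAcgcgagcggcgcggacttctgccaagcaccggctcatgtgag
ZWINT: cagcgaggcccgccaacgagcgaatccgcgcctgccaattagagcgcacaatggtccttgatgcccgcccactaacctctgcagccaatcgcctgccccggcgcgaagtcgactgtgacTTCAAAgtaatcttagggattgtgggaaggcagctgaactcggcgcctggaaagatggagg
ZW10: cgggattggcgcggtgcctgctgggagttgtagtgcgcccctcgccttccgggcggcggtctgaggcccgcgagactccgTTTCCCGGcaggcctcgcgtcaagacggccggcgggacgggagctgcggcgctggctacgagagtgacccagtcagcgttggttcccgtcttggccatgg
With the first base from the RefSeq start counted as 1 and the base before it as -1, the capitals begin at -3, 4 and 14 in NDC80. There a pair of CHR matches adjoin each other and the E2F match follows. They begin at -123 (E2F) and 2 (CHR) in OIP5, at -18 (CHR) in CENPA, at -31 (CHR) in ZWINT and at -70 (E2F) in ZW10. Of the 12 promoters at hand for genes that rose after E2F1 siRNA, described further on, 8 held a CHR and 4 an E2F element. Of the 21 others, 11 held a CHR and 2 an E2F element. For genes lower in si-E2F3 than in si-E2F1, 9 of 16 promoters held a CHR (56.2%). Among the rest it was 10 of 17 (58.8%), so the CHR share was alike on both sides of that comparison. The genes with both elements in the window were NDC80, OIP5, CENPA and ZW10; the E2F match of CENPA and the CHR match of ZW10 lie outside the stretches printed.

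**Figure D1:**
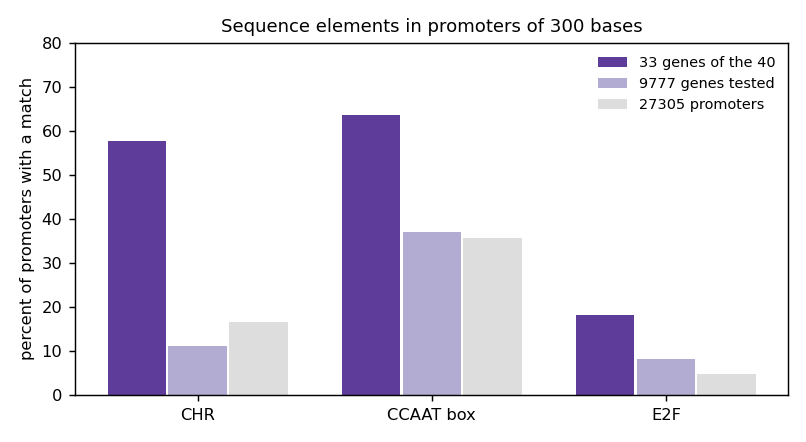
Percent of RefSeq promoters (y axis) that hold a CHR, a CCAAT box or an E2F element (x axis), for 33 of the 40 genes, for the promoters matched to genes tested and for all promoters in the table. The bar for the CHR stands at 57.6% for the 33 genes and at 11.0% for promoters of genes tested.

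In Control cells the 40 genes spanned a wide range of levels per length. ZW10 was lowest at 4.70 ± 0.406 FPKM and BUB3 highest at 127 ± 5.02 FPKM (SD, n = 3 each), with a median of 21.4 FPKM over the 40 means. ZWINT, SKA2, MAD2L1, CENPN and PMF1 followed BUB3, at 85.3, 74.5, 66.5, 64.2 and 50 FPKM. CENPP, SPC25, SGO2, CENPC, CENPE and CENPA joined ZW10 under 10 FPKM. Partners of 1 complex did not have equal transcript levels: in Control, SPC24 was at 36.9 ± 0.614 FPKM and SPC25 at 5.49 ± 0.480 FPKM. The coefficient of variation between replicates had a median of 6.15% in si-E2F3, 6.34% in si-E2F1 and 5.98% in Control, and its highest values were 25.2% (CENPE), 26.1% (SPC25) and 34.5% (CENPE). Small changes of CENPE and SPC25 could therefore not be resolved. Summed over the 40 genes, the level was 1168 ± 19.6 FPKM in si-E2F3, 1418 ± 34.4 FPKM in si-E2F1 and 1163 ± 22.2 FPKM in Control. The E2F1 siRNA libraries were above all others in that sum, and the other groups overlapped. In bulk RNA, a change in the share of cells in mitosis and a change in RNA per cell cannot be told apart.

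After E2F1 siRNA, 17 of the 40 genes rose against Control (42.5%), 1 fell (2.5%) and 22 did not pass the test, which is limma on log2(FPKM + 1) at a Benjamini-Hochberg adjusted p under 0.05 over all genes. Over all 13777 genes tested, 20.5% rose and 17.3% fell. The median log2 change was 0.24 for the 40 genes and 0.03 for all genes, and the fitted change was above 0 for 35 of the 40. The rises were mostly modest, from 0.17 to 1.38 on the log2 scale with a median of 0.36, and 6 of them were at least 0.5. Without Control replicate 3, 18 rose and 1 fell, against 17.1% and 15.0% of all genes. Without si-E2F1 replicate 2, 16 rose and 2 fell, against 17.3% and 15.4%, the added fall being CENPI (log2 -0.36). That fit ended the calls of OIP5, MIS18A, SPC24 and BUB1B and added rises of SKA3, MAD1L1 and SGO1. Adding 1 FPKM before the log makes changes of weakly expressed genes look smaller. After E2F3 siRNA, 5 of the 40 rose (12.5%) and 8 fell (20%) against Control, with 27 not called. Over all genes, 21.1% rose and 16.4% fell in that comparison. Without a filter on low values, 5 of the 40 genes again rose (12.5%), against 8.21% of all genes. That share of all genes also counts genes near 0 FPKM, which can hardly pass the test. With a filter of 5 FPKM, 6 of the 40 rose, against 24.4% of all genes. The median was 0.04 for the 40 and 0.04 for all genes. RLE scaling, which sets the median ratio between libraries to 1, turned the balance of all genes from 2913 higher and 2266 lower to 2258 higher and 2793 lower. It left 4 of the 40 genes higher and 8 lower, against 16.4% and 20.3% of all genes. Without Control replicate 3, 5 rose and 6 fell, against 17.1% and 13.9% of all genes. The number that fell was 4 of 40 without Control replicate 2, without si-E2F3 replicate 2 or without si-E2F3 replicate 3. In those fits 14.8%, 15.4% and 13.8% of all genes fell, so the share of the 40 that fell was then below that of all genes. Both comparisons use the same Control libraries, so their values are given side by side and not as independent results.

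**Figure D2:**
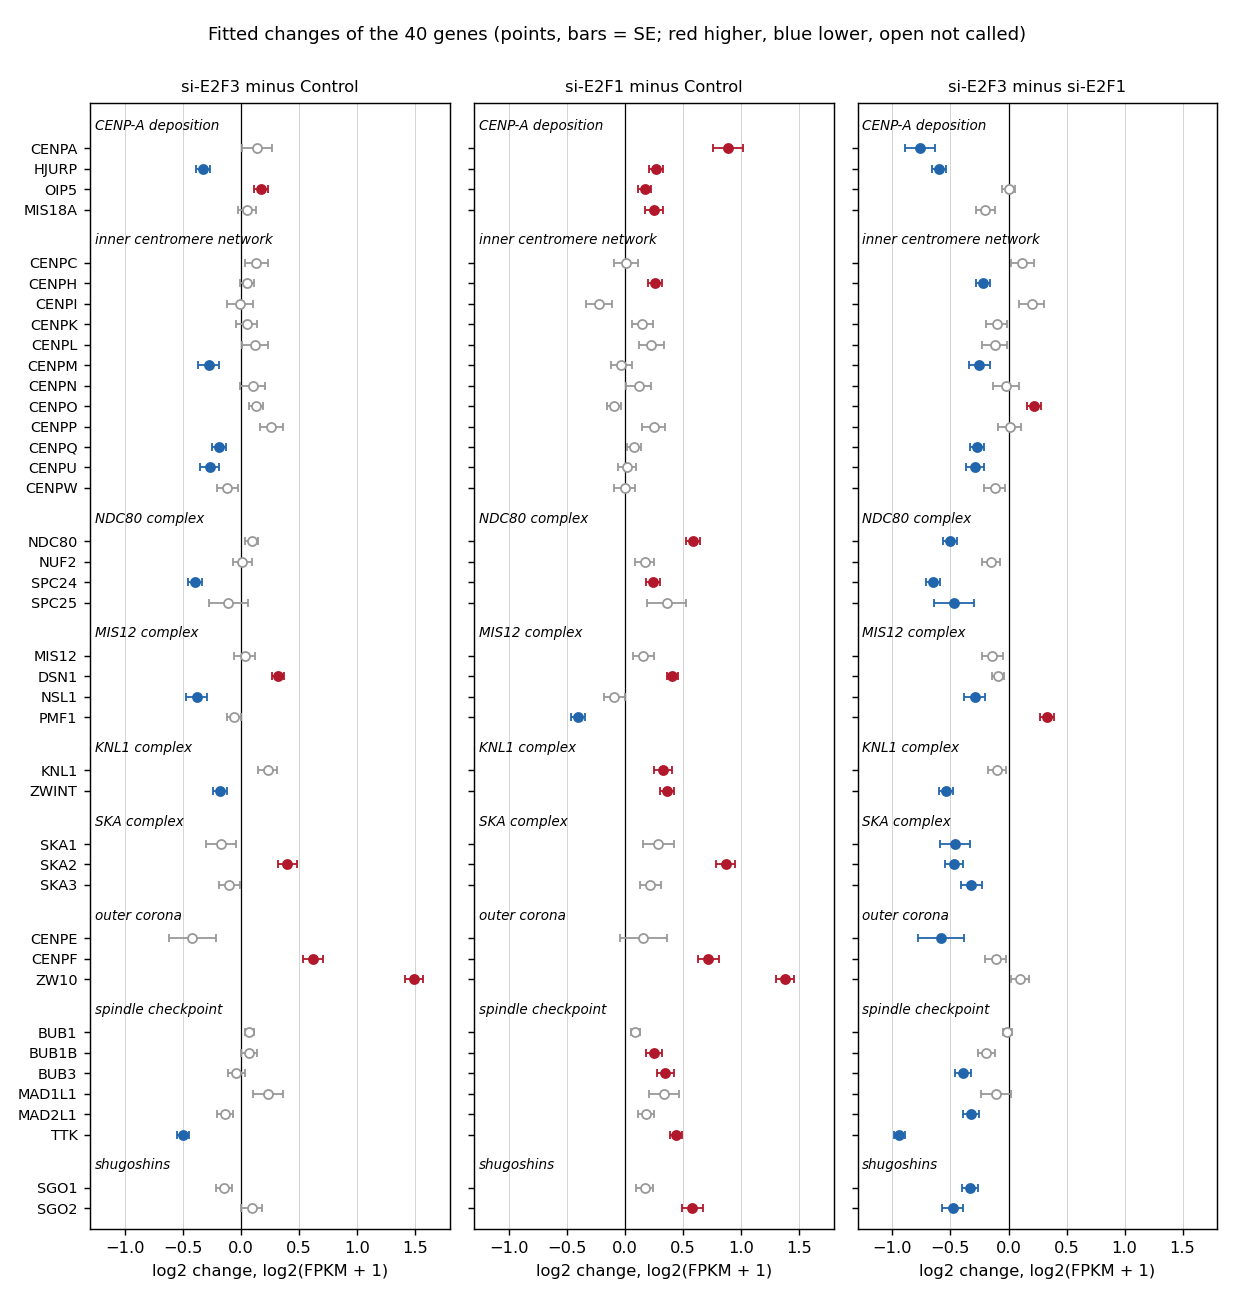
Fitted log2 change (x axis, log2(FPKM + 1) scale) of each of the 40 genes by subcomplex (y axis), for si-E2F3 minus Control, si-E2F1 minus Control and si-E2F3 minus si-E2F1; bars are SEs, filled points passed the test. In the middle panel 17 points are called higher and 1 lower, and in the right panel 20 are called lower and 2 higher.

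Set directly against each other, si-E2F3 and si-E2F1 differed for 22 of the 40 genes. In si-E2F3, 20 were lower than in si-E2F1 (50%) and 2 were higher (5.0%), while over all genes 22.0% were lower and 23.5% higher. The median log2 change was -0.21 for the 40 and 0.02 for all genes. TTK had the largest difference, at log2 -0.94, followed by CENPA (-0.76), SPC24 (-0.65) and HJURP (-0.60). The genes that were higher in si-E2F3 than in si-E2F1 were PMF1 (log2 0.33) and CENPO (log2 0.22). Without Control replicate 3 the counts were 20 lower and 2 higher, against 21.1% and 22.6% of all genes. Without si-E2F3 replicate 2 they were 16 and 1, against 20.8% and 21.2%.

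**Figure D3:**
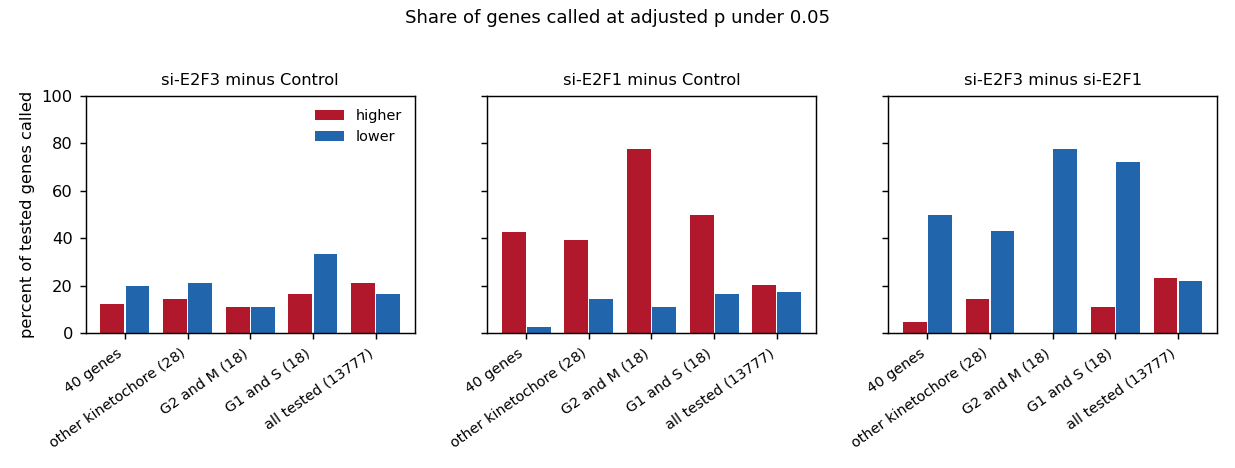
Percent of tested genes called higher (red) or lower (blue) on the y axis, for the 40 genes, 3 comparison lists and all genes tested (x axis), in the same 3 comparisons. The 40 genes stand at 42.5% higher after E2F1 siRNA against 20.5% of all genes, and at 12.5% higher after E2F3 siRNA against 21.1%.

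Genes that load CENP-A were higher after E2F1 siRNA. CENPA (2:26764289-26801067 in GRCh38), the centromeric histone itself, was at 8.38, 8.17 and 12.42 FPKM in si-E2F3, 17.35, 16.0 and 16.86 FPKM in si-E2F1, and 8.31, 9.01 and 8.32 FPKM in Control. All si-E2F1 libraries were above all others, and si-E2F3 replicate 3 stood above the other si-E2F3 and Control libraries. CENPA rose by 0.89 (log2) under E2F1 siRNA (SE 0.13; limma adjusted p = 4.66e-04), was lower in si-E2F3 than in si-E2F1 (log2 -0.76; limma adjusted p = 0.00105), and did not pass against Control after E2F3 siRNA (log2 0.14; limma adjusted p = 0.438). It shares 6.96% of its exon bases with SLC35F6 on the same strand, which averaged 16.5, 13.7 and 16.5 FPKM in si-E2F3, si-E2F1 and Control. HJURP (2:233833416-233854566), the chaperone that deposits CENP-A, was at 17.71, 17.43 and 17.78 FPKM in si-E2F3, 28.05, 25.9 and 27.8 FPKM in si-E2F1, and 23.39, 20.99 and 23.04 FPKM in Control. The 3 groups did not overlap, with Control in the middle. HJURP fell by 0.33 under E2F3 siRNA (SE 0.06; limma adjusted p = 0.00149) and rose by 0.27 under E2F1 siRNA (SE 0.06; limma adjusted p = 0.00452). OIP5 and MIS18A, subunits of the MIS18 complex that readies centromeres for loading, rose by less after E2F1 siRNA (log2 0.17 and 0.25). OIP5 also passed after E2F3 siRNA (log2 0.17). Both OIP5 calls were lost under RLE scaling and with only the 6 libraries compared. Leaving out a library ended the call after E2F3 siRNA in 7 of 9 fits (log2 0.14 to 0.20) and the call after E2F1 siRNA in 6 of 9 (log2 0.15 to 0.19). MIS18A lost its call in 5 of 9 fits that left out a library (log2 0.20 to 0.33 over the 9). In si-E2F3 minus si-E2F1, MIS18A missed the threshold (log2 -0.20, limma adjusted p = 0.0604). It was called lower there under RLE and upper-quartile scaling (limma adjusted p = 0.0332 and 0.0372). OIP5 shares 38% of its exon bases with OIP5-AS1, a transcript of the opposite strand at 35.2 to 39.3 FPKM, and no source used here says that strand was counted.

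In the inner centromere network, 1 of 12 genes rose after E2F1 siRNA (8.33%, against 20.5% of all genes) and 0 fell (against 17.3%). CENPH, of the CENP-H, I, K and M group, rose by 0.26 (SE 0.06; limma adjusted p = 0.00637), at 28.4 ± 1.46 FPKM in si-E2F3, 33.2 ± 0.504 FPKM in si-E2F1 and 27.5 ± 1.88 FPKM in Control (SD, n = 3 each). The 11 others had log2 changes of -0.22 (CENPI) to 0.25 (CENPP). After E2F3 siRNA, CENPM, CENPQ and CENPU fell by 0.28, 0.19 and 0.27 on the log2 scale. CENPU, which docks the kinase PLK1, was at 28.31, 24.71 and 23.96 FPKM in si-E2F3, 33.38, 28.42 and 33.23 FPKM in si-E2F1, and 29.93, 33.01 and 30.56 FPKM in Control. The si-E2F3 libraries were below every library of the other groups, by a narrow margin. CENPM was at 29.75, 29.84 and 27.46 FPKM in si-E2F3, 34.01, 36.36 and 33.55 FPKM in si-E2F1, and 41.07, 34.49 and 31.08 FPKM in Control. The Control libraries of CENPM ranged more widely than the difference between group means, and the lowest of them was above the highest in si-E2F3. Each of these 3 calls against Control was lost in 4 or more fits that left out a library, over which the changes ranged from -0.37 to -0.17 (CENPM), -0.23 to -0.15 (CENPQ) and -0.34 to -0.23 (CENPU). In the direct comparison CENPH, CENPM, CENPQ and CENPU were lower in si-E2F3 (log2 -0.22, -0.25, -0.27 and -0.29), and CENPO was higher (log2 0.22). Of these direct calls, those of CENPM, CENPU and CENPO were lost in 7, 3 and 2 of 9 fits that left out a library (log2 -0.27 to -0.21, -0.37 to -0.25 and 0.17 to 0.26). CENPC, which ties CENP-A chromatin to the outer kinetochore, was at 7.97 ± 1.13 FPKM in si-E2F3, 7.21 ± 0.547 FPKM in si-E2F1 and 7.14 ± 0.280 FPKM in Control (SD, n = 3 each) and passed in none of the 3 comparisons. Reads of CENPO, CENPP, CENPN and CENPU may be shared with opposite-strand genes: ADCY3, IPPK, CMC2 and PRIMPOL cover 27.0%, 38%, 12.8% and 11.7% of their exon bases.

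In the NDC80 complex, the microtubule-binding rod of the kinetochore, the subunits moved by unequal amounts. NDC80 (18:2571511-2616635), which contacts the microtubule, was at 19.81, 19.38 and 19.32 FPKM in si-E2F3, 30.52, 26.7 and 26.96 FPKM in si-E2F1, and 18.04, 18.44 and 18.28 FPKM in Control. Its si-E2F1 libraries were well above the rest, and the other groups lay within 2 FPKM of each other. NDC80 rose by 0.59 under E2F1 siRNA (SE 0.06; limma adjusted p = 4e-05) and did not pass after E2F3 siRNA (log2 0.09; limma adjusted p = 0.251). NUF2, its partner at the microtubule end, did not pass in any comparison and was at 31.4 ± 1.31 FPKM in si-E2F3, 35.1 ± 2.33 FPKM in si-E2F1 and 31.3 ± 3.41 FPKM in Control (SD, n = 3 each). SPC24 (19:11131520-11155808), at the end that anchors the rod in the kinetochore, was at 25.24, 29.69 and 28.21 FPKM in si-E2F3, 43.74, 46.1 and 41.71 FPKM in si-E2F1, and 37.23, 37.33 and 36.22 FPKM in Control. No library of 1 group overlapped another group. SPC24 fell by 0.40 under E2F3 siRNA (SE 0.06; limma adjusted p = 8.47e-04). It rose by 0.24 under E2F1 siRNA (SE 0.06; limma adjusted p = 0.0139), a call lost without si-E2F1 replicate 2 (log2 0.20). SPC25 passed in the direct comparison only (log2 -0.47; limma adjusted p = 0.0441), and that call was lost in 7 of 9 fits that left out a library (log2 -0.59 to -0.29).

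The MIS12 complex, which joins the inner network to KNL1 and NDC80, had calls in both directions. DSN1 was at 42.39, 38.31 and 38.48 FPKM in si-E2F3, 42.68, 43.05 and 40.87 FPKM in si-E2F1, and 30.98, 32.29 and 31.19 FPKM in Control. All libraries of both E2F siRNAs were above Control, and the siRNA groups overlapped. DSN1 rose by 0.32 under E2F3 siRNA (SE 0.05; limma adjusted p = 8.78e-04) and by 0.41 under E2F1 siRNA (SE 0.05; limma adjusted p = 1.81e-04). PMF1 was at 45.9, 48.27 and 49.19 FPKM in si-E2F3, 35.81, 38.1 and 39.3 FPKM in si-E2F1, and 52.79, 46.68 and 50.51 FPKM in Control. Only the si-E2F1 libraries were low. PMF1 fell by 0.40 under E2F1 siRNA (SE 0.06; limma adjusted p = 4.86e-04), the single fall among the 40 genes in that comparison, and was higher in si-E2F3 than in si-E2F1 (log2 0.33). It shares 23.3% of its exon bases with the readthrough gene PMF1-BGLAP, listed at 6.22, 4.61 and 5.28 FPKM on average in si-E2F3, si-E2F1 and Control. NSL1 fell by 0.38 after E2F3 siRNA (limma adjusted p = 0.00765), at 20.6 ± 1.30 FPKM in si-E2F3, 25.6 ± 3.22 FPKM in si-E2F1 and 27.1 ± 1.56 FPKM in Control (SD, n = 3 each). It was also lower in si-E2F3 than in si-E2F1 (log2 -0.29), a call lost without si-E2F1 replicate 1 or si-E2F3 replicate 2 (log2 -0.36 to -0.20 over the 9 fits that left out a library). MIS12 itself passed in no comparison (log2 0.03 after E2F3 siRNA and 0.16 after E2F1 siRNA); 9.53% of its exon bases are shared with DERL2 on the opposite strand, which averaged 34.4, 17.9 and 54.1 FPKM in si-E2F3, si-E2F1 and Control.

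KNL1, the scaffold on which BUB kinases gather, was at 21.02, 18.88 and 17.26 FPKM in si-E2F3, 19.35, 20.27 and 21.89 FPKM in si-E2F1, and 16.84, 16.53 and 14.91 FPKM in Control. Both siRNA groups were above all Control libraries. KNL1 passed after E2F1 siRNA (log2 0.33, SE 0.08; limma adjusted p = 0.00964) and missed the threshold after E2F3 siRNA (log2 0.23; limma adjusted p = 0.0512); the siRNAs did not differ in the direct comparison beyond the test (log2 -0.10; limma adjusted p = 0.334). ZWINT, its partner that recruits the ZW10 complex, was at 76.94, 75.66 and 72.46 FPKM in si-E2F3, 117.4, 99.15 and 113.08 FPKM in si-E2F1, and 86.14, 84.79 and 85.05 FPKM in Control. ZWINT differed by log2 -0.54 between si-E2F3 and si-E2F1 (SE 0.06; limma adjusted p = 6.27e-05) and rose by 0.36 after E2F1 siRNA (limma adjusted p = 0.00107). Its fall after E2F3 siRNA (log2 -0.18; limma adjusted p = 0.0345) lost its call when any single si-E2F3 or Control library was left out (log2 -0.20 to -0.16).

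The SKA complex, which keeps kinetochores on shortening microtubules, was led by SKA2. SKA2 (17:59109951-59155269) was at 110.43, 87.71 and 98.09 FPKM in si-E2F3, 143.51, 131.68 and 134.46 FPKM in si-E2F1, and 77.55, 76.9 and 68.97 FPKM in Control. The groups formed 3 separate steps, with si-E2F1 highest. SKA2 rose by 0.40 under E2F3 siRNA (SE 0.08; limma adjusted p = 0.00366) and by 0.87 under E2F1 siRNA (SE 0.08; limma adjusted p = 2.7e-05). SKA1 was at 9.5, 10.67 and 11.09 FPKM in si-E2F3, 12.82, 14.69 and 16.82 FPKM in si-E2F1, and 12.98, 13.13 and 9.72 FPKM in Control. SKA1 and SKA3 passed in neither comparison with Control and were lower in si-E2F3 than in si-E2F1 (log2 -0.46 and -0.32; limma adjusted p = 0.0135 and 0.0139). The SKA1 call was lost without si-E2F1 replicate 3 or si-E2F3 replicate 1 (log2 -0.55 to -0.37 over the 9 fits that left out a library).

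ZW10, which had the largest change of the 40 genes in both comparisons with Control, belongs with CENPF and CENPE to the outer corona, the fibrous outermost layer of unattached kinetochores. ZW10 (11:113733187-113773811), of the complex that brings dynein and MAD proteins to kinetochores, was at 15.86, 14.11 and 14.91 FPKM in si-E2F3, 13.98, 13.07 and 14.5 FPKM in si-E2F1, and 4.43, 4.51 and 5.17 FPKM in Control. Every library given an E2F siRNA was above 13 FPKM and no Control library above 5.17 FPKM. The mean in si-E2F3 was 3.18 times, and that in si-E2F1 2.94 times, the Control mean. ZW10 rose by 1.49 under E2F3 siRNA (SE 0.08; limma adjusted p = 8.05e-07) and by 1.38 under E2F1 siRNA (SE 0.08; limma adjusted p = 1.09e-06). The siRNAs differed by log2 0.10 (limma adjusted p = 0.3). Its partners in the complex, named for that role and not by size of change, had other values: KNTC1 fell after both (log2 -0.25 in si-E2F3 and -0.19 in si-E2F1), and ZWILCH did not pass (log2 -0.10 and -0.04). CENPF (1:214603195-214664588), a large coiled-coil protein of the corona, was at 33.45, 27.96 and 33.82 FPKM in si-E2F3, 33.89, 33.33 and 35.11 FPKM in si-E2F1, and 19.16, 23.11 and 18.79 FPKM in Control. CENPF likewise rose after both siRNAs, by 0.62 under E2F3 siRNA (SE 0.09; limma adjusted p = 5.72e-04) and by 0.72 under E2F1 siRNA (SE 0.09; limma adjusted p = 1.92e-04). CENPE, the kinesin that moves chromosomes to the spindle equator, was at 6.34, 3.78 and 5.1 FPKM in si-E2F3, 8.28, 7.5 and 7.98 FPKM in si-E2F1, and 5.48, 10.07 and 6.12 FPKM in Control. Its Control libraries overlapped both siRNA groups. CENPE passed in the direct comparison only (log2 -0.58, SE 0.20; limma adjusted p = 0.0418), a call lost in 5 of 9 fits that left out a library (log2 -0.72 to -0.41).

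**Figure D4:**
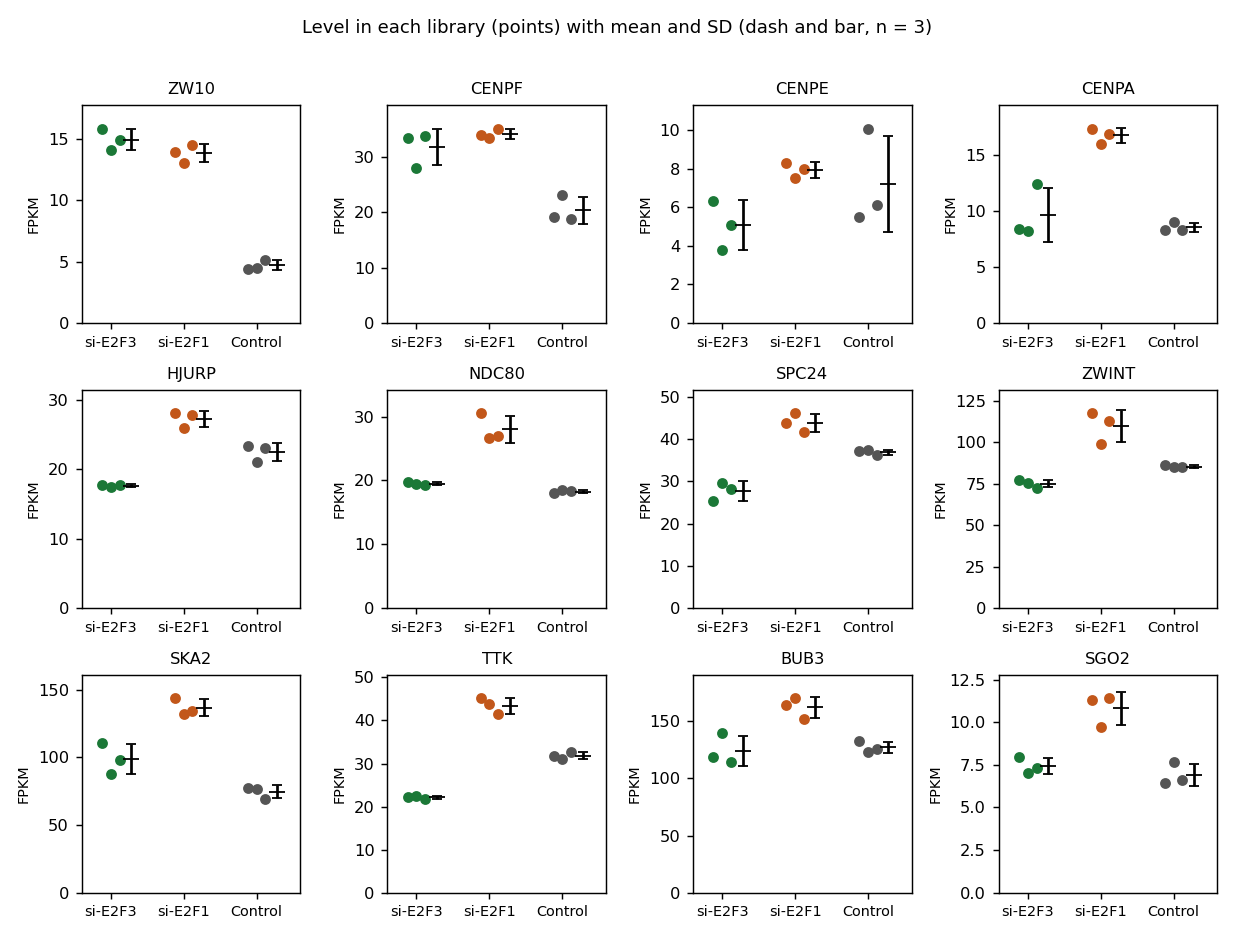
FPKM (y axis, from 0) of 12 of the genes in each library (points) by group (x axis), with the mean and SD of 3 libraries beside them. ZW10 lies above 13 FPKM in all libraries of both E2F siRNAs and at most at 5.17 FPKM in Control, while TTK has Control between the siRNA groups.

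Among the 6 spindle checkpoint genes, TTK had the largest log2 change in each of the 3 comparisons. TTK (6:80003887-80042527), the MPS1 kinase that starts checkpoint signalling, was at 22.16, 22.52 and 21.72 FPKM in si-E2F3, 45.14, 43.73 and 41.49 FPKM in si-E2F1, and 31.82, 31.02 and 32.65 FPKM in Control. The 3 groups were far apart relative to the spread within each. TTK fell by 0.50 under E2F3 siRNA (SE 0.05; limma adjusted p = 3.59e-05) and rose by 0.44 under E2F1 siRNA (SE 0.05; limma adjusted p = 7.8e-05). Its mean in si-E2F3 was 0.509 times that in si-E2F1 (log2 -0.94; limma adjusted p = 4.34e-07). BUB3, which docks BUB kinases on KNL1, was at 118.9, 139.25 and 113.94 FPKM in si-E2F3, 164.17, 169.97 and 152.13 FPKM in si-E2F1, and 132.87, 123.38 and 125.29 FPKM in Control. BUB3 rose by 0.35 after E2F1 siRNA (limma adjusted p = 0.00435) and did not pass after E2F3 siRNA (log2 -0.04; limma adjusted p = 0.696). BUB1B, the checkpoint protein BUBR1, rose by 0.25 after E2F1 siRNA (limma adjusted p = 0.0236). That call was lost without Control replicate 1 or si-E2F1 replicate 2 (log2 0.17 to 0.31 over the 9 fits that left out a library). In si-E2F3 minus si-E2F1, BUB1B missed the threshold (log2 -0.19, limma adjusted p = 0.0656). It was called lower there under RLE and upper-quartile scaling (limma adjusted p = 0.0297 and 0.0325). BUB1 varied least of the 40 in si-E2F1 and passed in no comparison: it was at 30.8 ± 1.03 FPKM in si-E2F3, 31.1 ± 0.233 FPKM in si-E2F1 and 29.3 ± 0.597 FPKM in Control (SD, n = 3 each). MAD2L1, which locks CDC20, was lower in si-E2F3 than in si-E2F1 (log2 -0.32; limma adjusted p = 0.00449) and passed in neither comparison with Control. MAD1L1, its receptor at kinetochores, did not pass in any of the 3; in si-E2F1 its libraries were spread over 25.32, 19.32 and 29.14 FPKM, and without si-E2F1 replicate 2 it was called higher after E2F1 siRNA (log2 0.50).

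The shugoshins guard centromeric cohesion. SGO2 was at 7.96, 7.02 and 7.3 FPKM in si-E2F3, 11.31, 9.7 and 11.4 FPKM in si-E2F1, and 6.44, 7.66 and 6.61 FPKM in Control. It rose by 0.58 under E2F1 siRNA (SE 0.09; limma adjusted p = 7.19e-04), its si-E2F1 libraries lying above all others. SGO1 was at 17.12, 16.67 and 16.11 FPKM in si-E2F3, 23.29, 18.84 and 21.49 FPKM in si-E2F1, and 19.33, 18.58 and 17.94 FPKM in Control. The si-E2F1 and Control libraries of SGO1 overlapped, and the si-E2F3 libraries were lowest. Both shugoshins were lower in si-E2F3 than in si-E2F1 (SGO1 log2 -0.33; SGO2 log2 -0.48; limma adjusted p = 0.00546 and 0.00171).

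Other genes of the kinetochore and checkpoint, 28 in all, gave a mixed picture. After E2F1 siRNA 11 of them rose (39.3%, against 20.5% of all genes) and 4 fell (14.3%, against 17.3%), with a median log2 change of 0.16. After E2F3 siRNA 4 rose (14.3%, against 21.1% of all genes) and 6 fell (21.4%, against 16.4%), with a median of 0.02. In si-E2F3 set against si-E2F1, 12 were lower (42.9%, against 22.0% of all genes) and 4 higher (14.3%, against 23.5%), with a median of -0.11. CDC20, the target of the checkpoint, was at 69.0, 128 and 85.6 FPKM on average in si-E2F3, si-E2F1 and Control, and was lower in si-E2F3 than in si-E2F1 by log2 -0.88 (limma adjusted p = 1.34e-06). MAPRE1, a microtubule plus-end protein, went the other way, with means of 111, 51.3 and 112 FPKM in si-E2F3, si-E2F1 and Control and a log2 change of -1.11 after E2F1 siRNA (limma adjusted p = 1.44e-07). CENPB, which binds a motif of centromeric satellite DNA, fell by 0.65 after E2F1 siRNA, and CLIP1, another plus-end protein, rose by 0.75. CENPT, of the inner network, fell by 0.40 after E2F3 siRNA.

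Genes of other cell cycle steps moved beside the 40. Of 18 genes of G2 and M phase, 14 rose (77.8%, against 20.5% of all genes) and 2 fell (11.1%, against 17.3%) after E2F1 siRNA, with a median log2 change of 0.44. The 2 that fell were CCNF (log2 -0.36) and CDK1 (log2 -0.20). After E2F3 siRNA 2 rose and 2 fell (11.1% each, against 21.1% and 16.4% of all genes), with a median of -0.03. In the direct comparison 14 of them were lower in si-E2F3 than in si-E2F1 (77.8%, against 22.0% of all genes) and 0 were higher (against 23.5%). PLK1, the mitotic kinase, averaged 57.4, 97.8 and 62.4 FPKM in si-E2F3, si-E2F1 and Control, and MKI67, the proliferation antigen, averaged 31.1, 51.7 and 31.5 FPKM. The summed level of these 18 genes was 1438 ± 31.1 FPKM in si-E2F3, 1880 ± 25.2 FPKM in si-E2F1 and 1430 ± 10.8 FPKM in Control (SD, n = 3 each). Of 18 genes of G1 and S phase, 9 rose (50%, against 20.5% of all genes) and 3 fell (16.7%, against 17.3%) after E2F1 siRNA, with a median of 0.23. The falls were TYMS (log2 -1.36), RRM2 (log2 -0.68) and CCNE2 (log2 -0.18), and the largest rise was that of GINS2 (log2 0.62). After E2F3 siRNA 3 rose (16.7%, against 21.1% of all genes) and 6 fell (33.3%, against 16.4%), with a median of -0.15. In the direct comparison 13 were lower in si-E2F3 than in si-E2F1 (72.2%, against 22.0% of all genes) and 2 were higher (11.1%, against 23.5%). Those higher were TYMS (log2 1.21) and RRM2 (log2 0.48). The part of cell cycle distribution in the changes of the 40 genes was not tested.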

How the data were processed

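RNA-seq of 9 HK1 libraries (3 per group) was analysed from the FPKM per gene that the authors deposited, per the file headers. The submitters' processing notes name GRCh38 and list HISAT2, TopHat, Trimmomatic, DESeq and HTSeq, without stating what each tool did or which version was run. Of 59107 entries per file, 726 assembled loci without an Ensembl identifier and 12 text lines without a value were left out. Names and coordinates are from GENCODE 29 (56933 identifiers matched exactly, 1328 after the version was dropped). Genes reaching 1 FPKM in 3 or more libraries were kept, and log2(FPKM + 1) was fitted with limma 3.58.1 (R 4.3.3; 1 mean per group over all 9 libraries, trended prior variance); two-sided p-values were adjusted by Benjamini-Hochberg over 13777 genes. The fit was tested on simulated data. Values in every library are given for genes called with groups that do not overlap and a log2 change of at least 0.5, and for at least 2 genes per subcomplex. Members and lists were chosen with earlier results of these data known. Identical values between any pair of libraries made up at most 0.445% of genes above 1 FPKM. Alternatives were another pseudocount, filters, scalings, only the libraries compared, a replicate term, and leaving out each library. Figures and motif counts were made in Python 3.11.15.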

Additional observations from a re-analysis of the deposited data

Results flagged for a closer look

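HJURP, SPC24, ZWINT and TTK are singled out because the siRNAs moved them in opposite directions against Control. Their direct difference follows from those changes in the same fit, so it is no further evidence. The share of all genes called in opposite directions is not given here. The log2 change in si-E2F3 minus si-E2F1 was -0.60 for HJURP, -0.65 for SPC24, -0.54 for ZWINT and -0.94 for TTK. HJURP and TTK kept both calls against Control in each of the 9 fits that left out a library. SPC24 lost its rise after E2F1 siRNA without si-E2F1 replicate 2 (log2 0.20), and ZWINT lost its fall after E2F3 siRNA without any 1 of the 6 libraries compared. Groups of 3 libraries are too small for a test of outlying samples.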

How the results depend on the processing

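After E2F1 siRNA, 15 to 18 genes were called higher and 1 to 2 lower over the fits that left out a library, with medians of 0.21 to 0.24. Over the same fits, 17.1% to 21.0% of all genes were called higher and 14.1% to 17.3% lower. CENPL, CENPP, NUF2, SKA3, MAD1L1, MAD2L1 and SGO1, not called with all libraries, were each called higher in 1 of these fits. After E2F3 siRNA the counts were 4 to 6 higher and 4 to 8 lower, with medians of -0.0012 to 0.058 (-0.02 under RLE scaling). Leaving out any of the 6 libraries compared lowered the number of falls to 4 or 6. Over the fits that left out a library, 17.1% to 21.0% of all genes were higher and 13.4% to 16.3% lower. For si-E2F3 minus si-E2F1 the counts were 1 to 2 higher and 16 to 20 lower, with medians of -0.24 to -0.19. In these fits 20.3% to 23.1% of all genes were higher and 18.9% to 21.6% lower. RLE and upper-quartile scaling each gave 22 lower, against 25.1% and 24.5% of all genes. Without a filter on low values, 4 genes instead of 8 were called lower after E2F3 siRNA, against 6.23% of all genes. Of the 17 rises after E2F1 siRNA, 13 kept their call under every setting, as did 4 of 5 rises and 4 of 8 falls after E2F3 siRNA and 14 of 20 lower calls in the direct comparison. Deviations of same-numbered libraries correlated at -0.106 to 0.112. Between si-E2F1 and si-E2F3, same-numbered pairs (0.112, 0.0292 and 0.0516) were above differently numbered ones (at most 0.0225). Between Control and either siRNA group, all same-numbered pairs were negative. Whether replicate numbers pair the libraries is not settled by these values. With a replicate block, 17 genes were higher and 1 lower after E2F1 siRNA (19.4% and 16.4% of all genes). The counts were 4 and 8 after E2F3 siRNA (19.8% and 15.5%), and 2 and 18 in si-E2F3 minus si-E2F1 (22.4% and 21.0%). The block ended both OIP5 calls (limma adjusted p = 0.0627 after E2F1 siRNA and 0.0619 after E2F3 siRNA) and the direct calls of SPC25 and CENPE (0.0749 and 0.0742), and added MAD2L1 after E2F1 siRNA (0.0272).

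The direction changed under some setting only for changes that did not pass the test. With RLE scaling these were, after E2F1 siRNA, CENPC (-0.0048) and CENPW (-0.013); after E2F3 siRNA, MIS18A (-0.0015), CENPH (-0.0090), CENPK (-0.0026), NUF2 (-0.043) and MIS12 (-0.027); and in si-E2F3 minus si-E2F1, OIP5 (-0.036) and CENPP (-0.020). Upper-quartile scaling gave -0.030 for OIP5 and -0.016 for CENPP in the direct comparison (values here are log2 changes). Over the fits that left out a library, changes that crossed 0 after E2F1 siRNA ranged over CENPC -0.042 to 0.052, CENPM -0.12 to 0.078, CENPU -0.018 to 0.094 and CENPW -0.087 to 0.081. After E2F3 siRNA the ranges were CENPA -0.041 to 0.23, MIS18A -0.0008 to 0.13, CENPI -0.042 to 0.0001, CENPL -0.0004 to 0.23, CENPN -0.0029 to 0.16, NUF2 -0.038 to 0.10, SPC25 -0.19 to 0.031, MIS12 -0.075 to 0.095 and BUB3 -0.13 to 0.018, and in si-E2F3 minus si-E2F1 they were OIP5 -0.024 to 0.027, CENPK -0.17 to 0.0021, CENPN -0.13 to 0.043, CENPP -0.043 to 0.078, BUB1 -0.039 to 0.0069 and MAD1L1 -0.27 to 0.019. The cause of these shifts was not tested. Absolute depth is not known, so counting error could not be set apart from other spread; CENPE and SPC25, both under 10 FPKM, varied most between replicates.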
